A study of Mus musculus with 18 samples.

Results

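The neuropeptide genes described here are 10 precursor genes, Vip, Sst, Cort, Npy, Cck, Tac1, Penk, Pdyn, Nts and Crh. They were chosen by name. All probe sets of the array annotated to exactly 1 of these symbols, or to a synonym, were taken, 43 in all, and each gene is represented in each array by the median log2 signal of its probe sets. All 10 genes were found among the 20416 genes of the array, and all 10 lay above the low-signal limit that left 16332 genes to test. The limit is a mean log2 signal of 3.41 over the 18 arrays, and Crh, at 3.48, lay close to it.

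The study measured RNA of the caudal corpus callosum of C57BL/6 mice with and without Trem2, a microglial surface receptor, during demyelination. All animals, WT included, were fed 0.2% cuprizone (CPZ), which chelates copper and causes oligodendrocytes to die, and no mice on a diet without CPZ are analysed here. The 4 groups are Trem2-/- (KO) at 12 weeks with 6 arrays, WT at 12 weeks with 5 arrays, KO at 6 weeks with 3 arrays and WT at 6 weeks with 4 arrays. The labels use the stage both for the age of the mice and for the time on the diet, so the 2 readings cannot be told apart, and they do not tie the arrays to separate mice, so p-values measure only the spread between these samples, which may be technical.

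Array medians of the log2 values ran from 5.26 to 5.41. Trem2 averaged 5.27 ± 0.30 in KO against 7.36 ± 0.48 in WT at 12 weeks, and 5.80 ± 0.34 in KO against 7.29 ± 0.83 in WT at 6 weeks (log2, SD, n as above). The 2 arrays with the lowest weight in a weighted fit were both of 6 weeks. They were KO replicate 2 (weight 0.446) and WT replicate 4 (weight 0.502). Some of the values that moved without one of them are given beside the results. The corpus callosum is a white matter tract with few neuron bodies of its own, and the myelin list (11 measured genes such as Mbp and Mog) averaged 6.90 to 8.88 in the KO 12-week arrays, 6.70 to 8.38 in WT at 12 weeks, 7.57 to 9.38 in KO at 6 weeks and 8.17 to 10.22 in WT at 6 weeks. Genes of neuron bodies were also measured in every array: the cortical glutamatergic list (13 genes) averaged 6.66 to 7.01 in KO and 6.85 to 7.15 in WT at 12 weeks, and 5.77 to 6.98 in KO and 5.59 to 7.04 in WT at 6 weeks. In such bulk tissue, fewer cells of a type and less RNA per cell cannot be told apart.

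Neuropeptides are made as large precursors, cut and modified in dense-core vesicles, and released from neurons during strong or repeated firing to act on G protein-coupled receptors of nearby cells. In the cortex and hippocampus, VIP, somatostatin, NPY and cortistatin mark classes of GABA interneurons, cholecystokinin is made by interneurons and by pyramidal neurons, and tachykinin and opioid precursors are abundant in striatal projection neurons. Transcription of several of these precursor genes responds to cyclic AMP and calcium through the factor CREB, and the somatostatin promoter is a textbook example of the CREB binding site, the cyclic AMP response element (CRE).

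The promoters of Vip, Tac1 and Nts are shown because these genes carry the largest differences described below, that of Sst because it holds the full CRE, and that of Cck as an example of a CRE core close to the start. Each is the 250 bases before the annotated start in RefSeq's mouse build GRCm38.p6, 5′ to 3′ in the direction of the gene. Capitals mark the full CRE (TGACGTCA), the CRE core (TGACG, or CGTCA on the other strand) and, in Nts only, also an AP-1 site (TGANTCA, where N is any base). The Vip stretch lies at chr10:5638968-5639217 on the plus strand. The Sst stretch lies at chr16:23890845-23891094 on the minus strand. The Cck stretch lies at chr9:121495695-121495944 on the minus strand. The Tac1 stretch lies at chr6:7554811-7555060 on the plus strand. The Nts stretch lies at chr10:102490419-102490668 on the minus strand.
Vip: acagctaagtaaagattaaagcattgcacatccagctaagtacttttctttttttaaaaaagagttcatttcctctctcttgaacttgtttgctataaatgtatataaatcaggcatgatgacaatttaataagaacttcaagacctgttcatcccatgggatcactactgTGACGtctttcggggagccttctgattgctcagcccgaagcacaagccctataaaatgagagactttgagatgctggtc
Sst: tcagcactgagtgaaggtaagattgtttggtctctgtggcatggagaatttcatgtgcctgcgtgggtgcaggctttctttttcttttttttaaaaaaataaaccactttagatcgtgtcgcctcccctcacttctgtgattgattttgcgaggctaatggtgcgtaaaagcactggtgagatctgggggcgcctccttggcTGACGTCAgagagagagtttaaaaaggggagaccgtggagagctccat
Cck: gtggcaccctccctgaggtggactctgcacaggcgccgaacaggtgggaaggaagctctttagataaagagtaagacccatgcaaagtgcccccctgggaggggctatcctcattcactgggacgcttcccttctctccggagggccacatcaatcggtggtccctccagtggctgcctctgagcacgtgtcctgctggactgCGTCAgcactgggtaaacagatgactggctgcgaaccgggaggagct
Tac1: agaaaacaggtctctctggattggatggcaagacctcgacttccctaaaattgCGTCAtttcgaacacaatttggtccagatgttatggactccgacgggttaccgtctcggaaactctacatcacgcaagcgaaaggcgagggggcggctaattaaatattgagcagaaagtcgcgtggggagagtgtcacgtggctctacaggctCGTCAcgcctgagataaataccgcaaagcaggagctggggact
Nts: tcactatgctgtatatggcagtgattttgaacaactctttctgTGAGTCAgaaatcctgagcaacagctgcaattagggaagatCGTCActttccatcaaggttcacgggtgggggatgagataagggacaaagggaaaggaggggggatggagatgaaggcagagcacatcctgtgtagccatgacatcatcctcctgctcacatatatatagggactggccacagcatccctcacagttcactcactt
Of the 10 genes, 8 had an entry in the RefSeq promoter table, with 9 windows since Pdyn has more than 1, and Penk and Crh had none. Windows of 250 bases before and 50 after the start were searched on both strands. The full CRE was found in 1 of the 9 windows, that of Sst, at position -48 from the start, and in 1.79% of the 32851 promoters in the table. The core, which every full CRE also contains, was found in 6 windows (Vip, Sst, Cck, Tac1, Nts and Cort) and in 20.81% of all promoters. The AP-1 letters were found in 1 window, that of Nts, and in 7.81% of all promoters. These matches describe the letters and do not show that a factor binds.

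None of the 10 neuropeptide genes passed the test in any comparison (limma, Benjamini-Hochberg adjusted p under 0.05 over all 16332 genes). The share of all genes that passed was 0.0429% for KO against WT at 6 weeks, 0.441% for KO against WT at 12 weeks, 0.0184% for 12 against 6 weeks in WT, 0.00612% for 12 against 6 weeks in KO and 0% for the genotype by stage interaction. The number of members with an unadjusted p under 0.05 was 2 (Vip and Pdyn) for genotype at 6 weeks, where 5.44% of all genes had one, 0 at 12 weeks (11.1%), 1 (Vip) for stage in WT (8.47%), 1 (Tac1) for stage in KO (7.51%) and 2 (Vip and Pdyn) for the interaction (5.21%). The data therefore give levels and sizes for these genes, and the directions below are those of the group means.

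**Figure D1:**
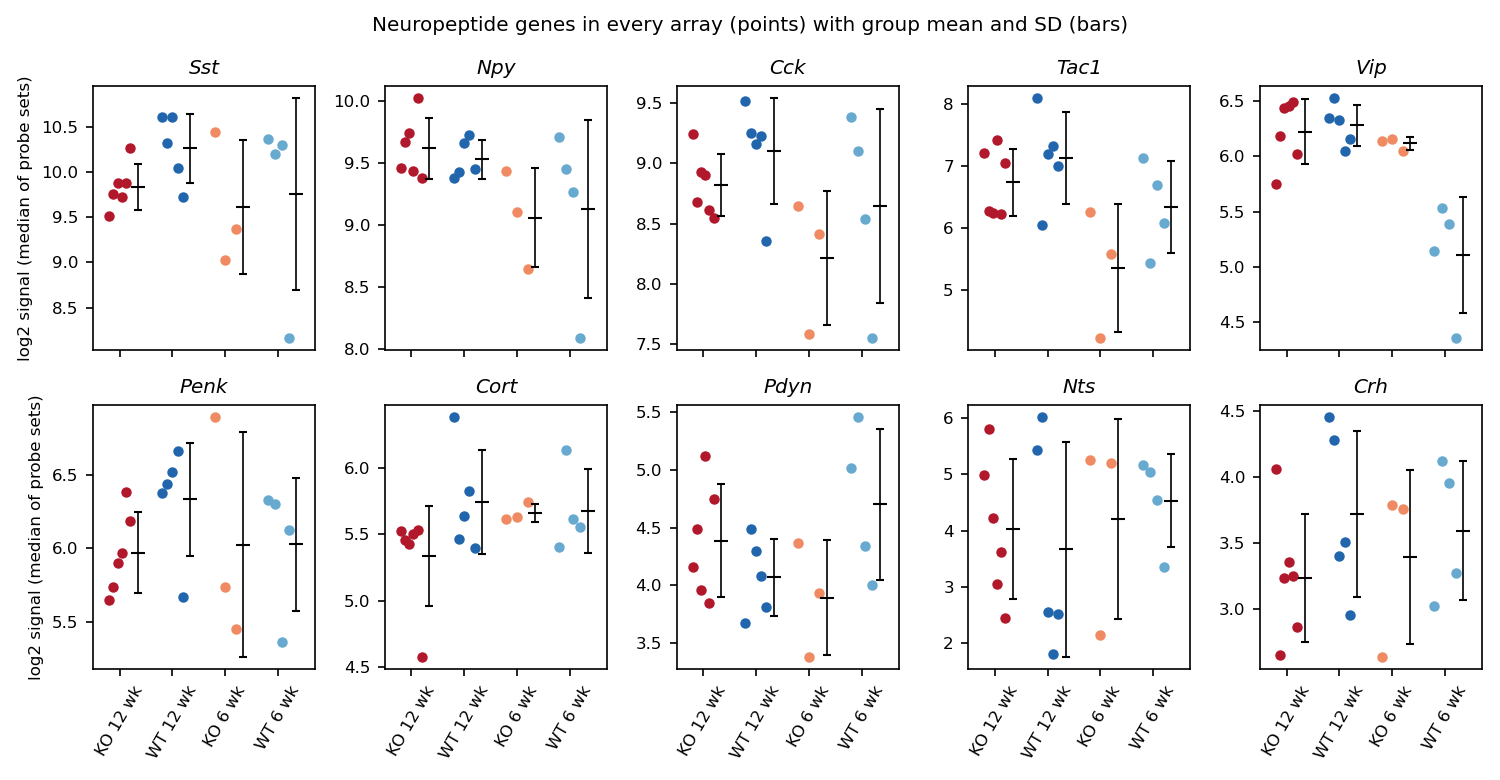
Log2 signal of each neuropeptide gene (vertical axes, each with its own range) in every array (points), by genotype and stage, with the group mean and SD beside the points. Vip in WT at 6 weeks lies below the other 3 groups, and Nts spans the widest range within groups.

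VIP marks interneurons that mainly inhibit other interneurons, and Vip was the member with the smallest p in both the genotype comparison at 6 weeks and the stage comparison in WT. The log2 signal of Vip at 12 weeks ran from 5.75 to 6.49 with a median of 6.31 in KO, against 6.34, 6.53, 6.33, 6.04 and 6.16 in WT. At 6 weeks it was 6.14, 6.16 and 6.05 in KO, against 5.14, 5.54, 5.39 and 4.36 in WT. All 4 WT arrays of 6 weeks were thus lower than every one of the other 14 arrays, which spanned 5.75 to 6.53. The share of all genes with this pattern was not counted, so how unusual it is cannot be read from these values.

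The Vip difference between KO and WT at 6 weeks was 1.01 ± 0.25 (log2, SE), a 2.02-fold higher signal in KO, with an adjusted p of 0.262. KO and WT did not overlap, and the share of all genes with KO wholly above WT at this stage was 2.72%. In WT, Vip was 1.18 ± 0.22 higher at 12 weeks than at 6 weeks, 2.26-fold, with an adjusted p of 0.0657, and the share of all genes with 12 weeks wholly above 6 weeks in WT was 1.18%. This adjusted p ranged from 0.0559 to 0.317 over the other settings and missed the threshold in all of them. Both of these differences use the same 4 WT arrays of 6 weeks and are not independent.

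For genotype at 12 weeks and for stage in KO the Vip differences were within their errors. KO minus WT at 12 weeks was -0.06 ± 0.20 (adjusted p = 0.935), with a 95% interval of -0.47 to 0.35. The value of 12 minus 6 weeks in KO was 0.11 ± 0.23 (adjusted p = 0.938). The interaction was -1.07 ± 0.32 (adjusted p = 0.783). All 8 Vip probe sets were higher in KO than in WT at 6 weeks, by 0.02 to 2.39, and all 8 were higher at 12 than at 6 weeks in WT, by 0.46 to 2.44. At 12 weeks 4 of the 8 were higher and 4 lower in KO than in WT.

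WT replicate 4 of 6 weeks held the lowest Vip value. Without it the genotype difference at 6 weeks was 0.76 and the stage difference in WT 0.93, and without it and KO replicate 2 the genotype difference was 0.74 ± 0.25 (adjusted p = 0.945). The pan-neuronal list (13 measured genes such as Snap25 and Syt1) was lower in KO at 6 weeks in all 13 genes, with a median of -0.25 that became 0.24 without KO replicate 2, and the list averaged 7.13 to 8.79 in KO against 7.69 to 8.99 in WT. It went the same way as Vip between stages in WT, with 13 of 13 genes higher at 12 weeks, a median of 0.38 (0.10 without WT replicate 4 of 6 weeks), and averages of 8.58 to 8.89 at 12 weeks against 7.69 to 8.99 at 6 weeks. No gene of the list passed in either comparison. With the list's score as a covariate the Vip differences were 1.06 ± 0.25 (adjusted p = 0.216) for genotype at 6 weeks and 1.11 ± 0.23 (adjusted p = 0.0992) for stage in WT.

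**Figure D2:**
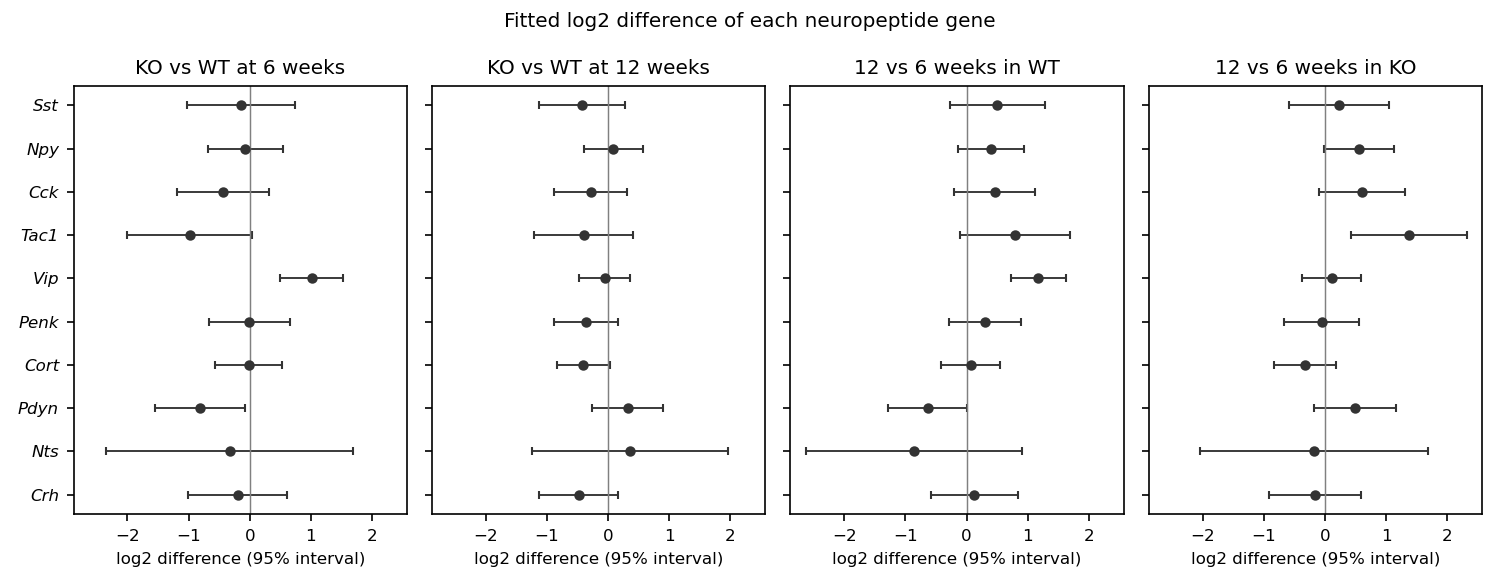
Fitted log2 difference (horizontal axes) of each neuropeptide gene in 4 comparisons, KO minus WT in the left 2 panels and 12 minus 6 weeks in the right 2, with 95% intervals that are not adjusted for the number of genes. The interval of Vip lies above 0 for genotype at 6 weeks and for stage in WT, that of Tac1 for stage in KO, that of Pdyn lies below 0 for genotype at 6 weeks, and the Nts intervals are the widest.

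Somatostatin is the peptide of interneurons that inhibit the dendrites of pyramidal cells. The log2 signal of Sst at 12 weeks ran from 9.51 to 10.27 with a median of 9.82 in KO, against 10.61, 10.32, 10.61, 10.04 and 9.72 in WT. The 6-week values were 10.44, 9.02 and 9.37 in KO, against 10.37, 10.19, 10.29 and 8.17 in WT. The groups overlapped at both stages, and the lowest value of all was that of WT replicate 4 of 6 weeks. KO minus WT was -0.15 ± 0.42 at 6 weeks (adjusted p = 0.999) and -0.42 ± 0.34 at 12 weeks (adjusted p = 0.669). The stage difference in WT, 0.50 ± 0.37 (adjusted p = 0.735), became -0.03 when WT replicate 4 of 6 weeks was left out. KO minus WT at 6 weeks was -0.68 without that array and 0.15 without KO replicate 2.

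Cortistatin is a close relative of somatostatin that binds the same receptors. At 12 weeks Cort ran from 4.57 to 5.53 with a median of 5.48 in KO, against 6.38, 5.47, 5.64, 5.82 and 5.40 in WT. At 6 weeks it was 5.62, 5.63 and 5.74 in KO, against 5.40, 6.14, 5.61 and 5.56 in WT, a difference of -0.01 ± 0.26 (adjusted p = 0.999). At 12 weeks KO had the lower mean, by a difference of -0.41 ± 0.21 (adjusted p = 0.477), the smallest p of the 10 genes for genotype at 12 weeks, although the ranges overlapped. In KO, all 6 arrays of 12 weeks were below all 3 of 6 weeks, as were 1.62% of all genes, with a difference of -0.33 ± 0.24 (adjusted p = 0.779). This difference was -0.18 without KO replicate 6 of 12 weeks, which held the lowest Cort value. Of the 3 Cort probe sets, 1 was higher and 2 lower at 12 weeks in KO, over a span of -0.49 to 0.11.

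NPY is made by several interneuron classes and dampens excitatory transmission. Npy averaged 9.62 ± 0.24 in KO against 9.53 ± 0.15 in WT at 12 weeks, and 9.06 ± 0.40 in KO against 9.13 ± 0.71 in WT at 6 weeks (SD). The genotype groups overlapped at both stages. The stage difference was 0.56 ± 0.27 in KO (adjusted p = 0.665) and 0.40 ± 0.26 in WT (adjusted p = 0.689). That in WT was 0.05 without WT replicate 4 of 6 weeks. KO minus WT at 6 weeks was -0.07 ± 0.29 (adjusted p = 0.999). Over fits without 1 array it ran from -0.42, without WT replicate 4, to 0.14, without KO replicate 3.

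Cholecystokinin acts through the receptors CCKAR and CCKBR. Cck at 12 weeks ran from 8.55 to 9.25 with a median of 8.79 in KO, against 9.52, 9.25, 9.16, 9.23 and 8.35 in WT. At 6 weeks it had 8.65, 7.58 and 8.41 in KO, against 9.38, 9.10, 8.54 and 7.55 in WT. KO had the lower mean at both stages, with -0.43 ± 0.36 at 6 weeks (adjusted p = 0.999) and -0.28 ± 0.29 at 12 weeks (adjusted p = 0.743), and the ranges overlapped at both. All 5 Cck probe sets were lower in KO at each stage, and 12 weeks exceeded 6 weeks by 0.61 ± 0.33 in KO (adjusted p = 0.698) and 0.46 ± 0.32 in WT (adjusted p = 0.716). The low values of 6 weeks were those of KO replicate 2 and WT replicate 4. Without KO replicate 2 the stage difference in KO was 0.29 and the genotype difference at 6 weeks -0.11. Without WT replicate 4 the stage difference in WT was 0.10 and the genotype difference at 6 weeks -0.79.

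Tac1 encodes substance P and neurokinin A, the ligands of the tachykinin receptors. Its log2 signal at 12 weeks ran from 6.23 to 7.41 with a median of 6.65 in KO, against 8.09, 6.04, 7.19, 7.32 and 7.003 in WT. At 6 weeks it was 6.26, 4.24 and 5.58 in KO, against 7.13, 5.44, 6.70 and 6.09 in WT. In KO, only the highest value of 6 weeks reached into the range of 12 weeks. The stage difference in KO was 1.37 ± 0.45, 2.59-fold higher at 12 weeks (adjusted p = 0.500), and that in WT was 0.79 ± 0.43 (adjusted p = 0.634).

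All 5 Tac1 probe sets were higher at 12 than at 6 weeks in KO, by 0.67 to 1.54, and in WT, by 0.32 to 1.04. The value in KO rests in part on replicate 2 of 6 weeks, without which it was 0.81. That array was also the lowest of its group for the pan-neuronal list, at 7.13, against 8.45 and 8.79 in the other 2. Between stages in KO, 11 of the 13 pan-neuronal genes were higher at 12 weeks, with none passing and a median of 0.39, which became -0.10 without KO replicate 2 of 6 weeks. With that list as a covariate the Tac1 difference was 1.08 ± 0.44 (adjusted p = 0.466). Between genotypes, Tac1 was -0.98 ± 0.49 in KO minus WT at 6 weeks (adjusted p = 0.941), or -0.42 without KO replicate 2, and -0.40 ± 0.39 at 12 weeks (adjusted p = 0.732).

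Penk and Pdyn encode the opioid peptides, enkephalins and dynorphins, whose main receptors are the delta and kappa opioid receptors. Penk averaged 5.97 ± 0.28 in KO against 6.33 ± 0.39 in WT at 12 weeks, and 6.03 ± 0.76 in KO against 6.03 ± 0.45 in WT at 6 weeks (SD). No Penk comparison had an unadjusted p under 0.05, and the genotype difference was -0.36 ± 0.25 at 12 weeks (adjusted p = 0.626) and 0.00 at 6 weeks, with a 95% interval of -0.67 to 0.66. Its 2 probe sets correlated at only 0.14 over the 18 arrays, so the median joins signals that did not move together.

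Pdyn at 12 weeks ran from 3.85 to 5.12 with a median of 4.32 in KO, against 3.67, 4.48, 4.29, 4.08 and 3.81 in WT. At 6 weeks it had 4.37, 3.38 and 3.93 in KO, against 5.01, 5.46, 4.34 and 4.00 in WT, and the highest KO value exceeded the 2 lowest WT values. KO minus WT was -0.81 ± 0.35 at 6 weeks (adjusted p = 0.842) and 0.32 ± 0.28 at 12 weeks (adjusted p = 0.696), and the interaction was 1.13 ± 0.45 (adjusted p = 0.916). The 5 Pdyn probe sets were all lower in KO at 6 weeks, by -1.05 to -0.03. At 12 weeks 4 of the 5 were lower in KO and 1 was higher, over a span of -0.51 to 1.00. The 0.32 from the per-array median thus went against most of the probe sets. Taken by its brightest probe set, Pdyn was -0.51 ± 0.27 in KO minus WT at 12 weeks, and its interaction was -0.49. Both had the opposite sign to the values from the per-array median of the probe sets.

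**Figure D3:**
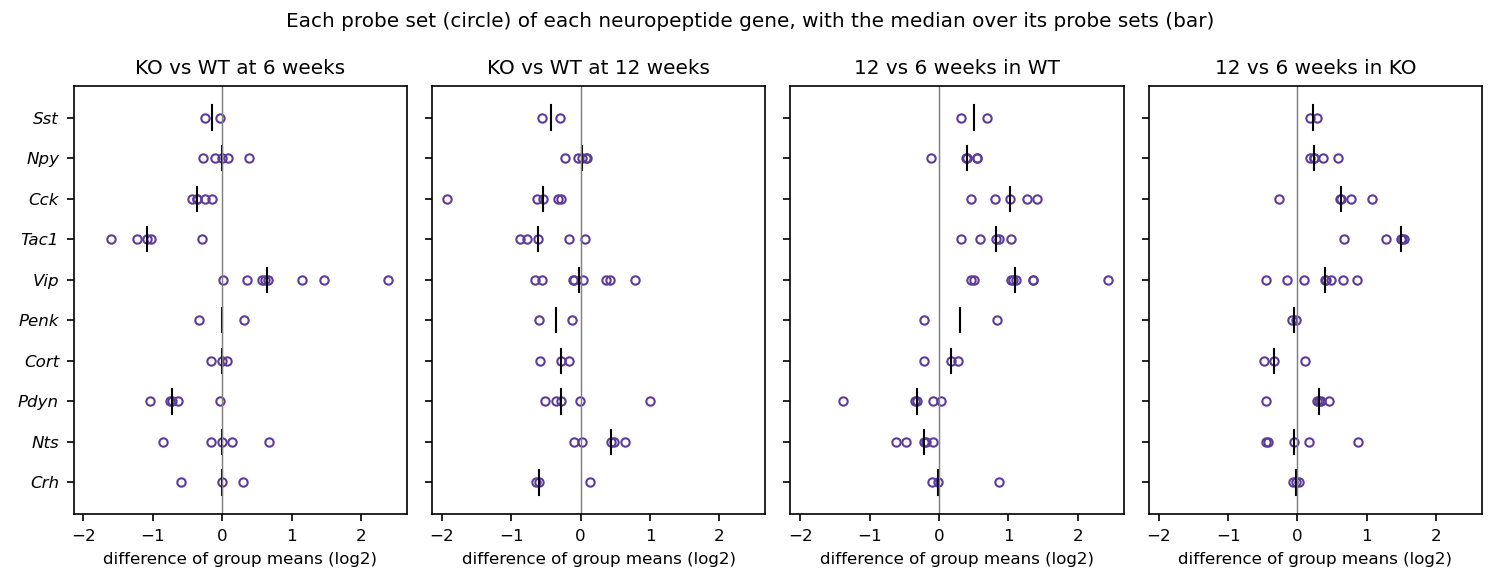
Difference of group means (log2, horizontal axes) for each probe set of each gene (circles), with the median over the gene's probe sets (bars), for KO minus WT in the left 2 panels and 12 minus 6 weeks in the right 2. All 8 Vip circles lie above 0 for genotype at 6 weeks and for stage in WT. Those of Pdyn for genotype at 12 weeks span -0.51 to 1.00, with 4 of 5 below 0.

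Neurotensin acts through the receptors NTSR1 and NTSR2 and modulates dopamine signalling. The log2 signal of Nts at 12 weeks was 4.99, 5.81, 4.23, 3.05, 3.63 and 2.46 in KO replicates 1 to 6, against 5.44, 6.01, 2.56, 1.82 and 2.52 in WT replicates 1 to 5. The 6-week values were 5.26, 2.16 and 5.19 in KO, against 5.16, 5.05, 4.55 and 3.36 in WT. High and low arrays occurred in both genotypes at 12 weeks. Nts had the widest range of the 10 genes, 4.19 over the 18 arrays, and its genotype and stage differences were small beside their errors: KO minus WT was -0.33 ± 0.97 at 6 weeks and 0.36 ± 0.77 at 12 weeks, and 12 minus 6 weeks was -0.86 ± 0.85 in WT and -0.18 ± 0.89 in KO (adjusted p of 0.814 or more in all 4). Without KO replicate 2 of 6 weeks, KO minus WT at 6 weeks was 0.70 and 12 minus 6 weeks in KO was -1.20.

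The 12-week arrays were listed in the deposit in 2 consecutive runs, and the split of Nts followed these runs. The second run holds KO replicates 4 to 6 and WT replicates 3 to 5, the first KO replicates 1 to 3 and WT replicates 1 and 2. No label calls these runs a batch, and the comparison was chosen after the values were seen, so it is a description of these arrays. Nts was 2.46 to 3.63 in KO and 1.82 to 2.56 in WT of the second run, against 4.23 to 5.81 in KO and 5.44 to 6.01 in WT of the first. The runs did not overlap in either genotype.

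In a fit to the 11 arrays of 12 weeks with genotype as a term, Nts differed by -2.61 ± 0.34 between the second and the first run (adjusted p = 0.0322). It ranked 1 of 16332 genes by p and by size, and it was the single gene that passed, 0.00612% of those tested, while 7.41% had an unadjusted p under 0.05. All 5 Nts probe sets were lower in the second run, by -3.37, -2.81, -2.98, -1.63 and -0.48. The other 9 neuropeptide genes had adjusted p of 0.662 or more for the runs, with Crh next at -0.56 ± 0.26. Sex as read from Xist and Y-linked genes followed genotype within the runs. The second run held female KO and male WT mice, the first male KO and female WT mice. Both runs held both sexes, but within each genotype the runs differed in sex. A run difference therefore cannot be told apart from a sex difference that goes opposite ways in KO and WT.

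The Nts call for the runs was not stable. It passed in 3 of 11 fits that each left out 1 array, those without KO replicates 3, 4 or 5, and was lost without any of the other 8, with adjusted p from 0.00346 to 0.185 and differences from -2.89 to -2.36. KO minus WT for Nts was 0.74 within the second run and -0.72 within the first. KO and WT also differed in sex within each run, so genotype and sex cannot be told apart in these values. Read by sex, the female mean was the higher one in both runs. With the run as a block, KO minus WT at 12 weeks was 0.10 ± 0.51.

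**Figure D4:**
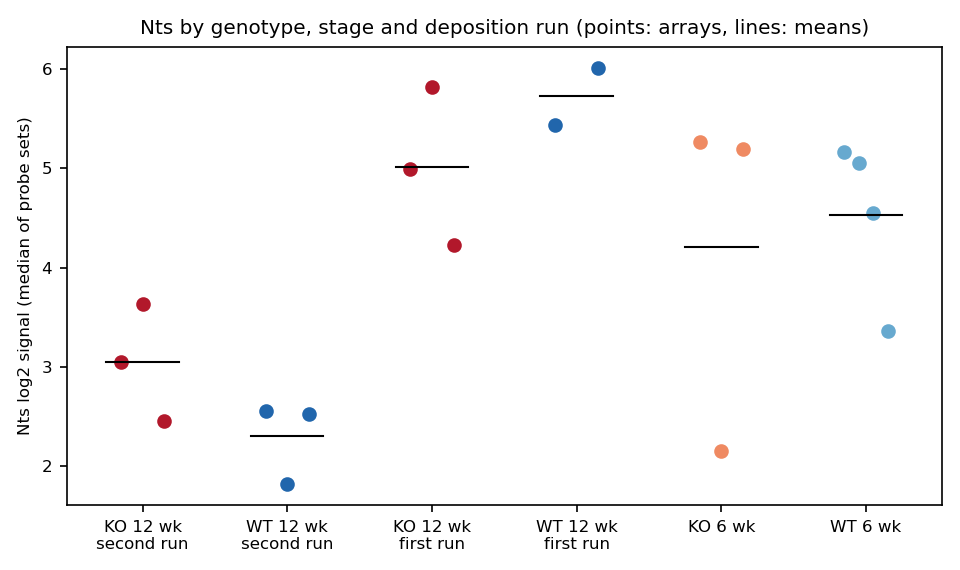
Log2 signal of Nts (vertical axis) in each array (points) with means (lines), for the 12-week arrays by deposition run and genotype and for the 6-week arrays by genotype. The 12-week arrays of the second run lie between 1.82 and 3.63, below all those of the first run at 4.23 to 6.01, and KO replicate 2 of 6 weeks lies at 2.16.

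Crh, corticotropin-releasing hormone, is the hypothalamic trigger of the stress axis and is also made by some cortical interneurons. It ran from 2.66 to 4.06 in KO against 2.96 to 4.45 in WT at 12 weeks, and from 2.64 to 3.79 in KO against 3.03 to 4.12 in WT at 6 weeks. The genotypes overlapped at both stages, with KO minus WT of -0.48 ± 0.31 at 12 weeks (adjusted p = 0.592) and -0.19 ± 0.39 at 6 weeks (adjusted p = 0.999). The probe sets of Crh hardly moved together, with correlations from -0.01 to 0.30 over the 18 arrays, and these signals lie near the low-signal limit.

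Set side by side, 1 of the 10 genes (Vip) had a higher mean in KO than in WT at 6 weeks and 9 a lower one. The median difference was -0.17, against 0.00 over all genes. Only Cck, Tac1 and Pdyn of the 9 were lower by more than 1 SE. With the pan-neuronal list's score as a covariate, Sst, Npy, Penk, Nts and Cort were above 0, by 0.01 to 0.05. Vip stayed above 0, and Cck, Tac1, Pdyn and Crh stayed below it. At 12 weeks 3 genes (Npy, Pdyn and Nts) were higher in KO and 7 lower, with a median of -0.32 against 0.02 over all genes. For Pdyn, 4 of its 5 probe sets were lower in KO at 12 weeks. Of all genes, 49.6% were higher in KO at 6 weeks and 52.4% at 12 weeks. The genotypes did not overlap for 1 member (Vip, higher in KO) at 6 weeks, where 2.72% of all genes lay wholly above and 2.36% wholly below WT, and for 0 members at 12 weeks, where 1.7% lay above and 0.771% below. Between stages, 8 members were higher at 12 weeks in WT (median 0.35) and 6 in KO (median 0.17), where 51.2% and 52.2% of all genes were. The stages did not overlap for 1 member (Vip, higher at 12 weeks) in WT, where 1.18% of all genes lay wholly above and 1.31% wholly below, and for 1 member (Cort, lower at 12 weeks) in KO, where 2.28% lay above and 1.62% below. The interaction was above 0 for 5 members and below 0 for 5, and above 0 for 52.1% of all genes. Without WT replicate 4 of 6 weeks the member median was 0.04 for stage in WT and -0.55 for genotype at 6 weeks, and without KO replicate 2 of 6 weeks it was 0.08 for stage in KO. Over all fits without 1 array it ran from -0.45 to -0.17 for genotype at 12 weeks.

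**Figure D5:**
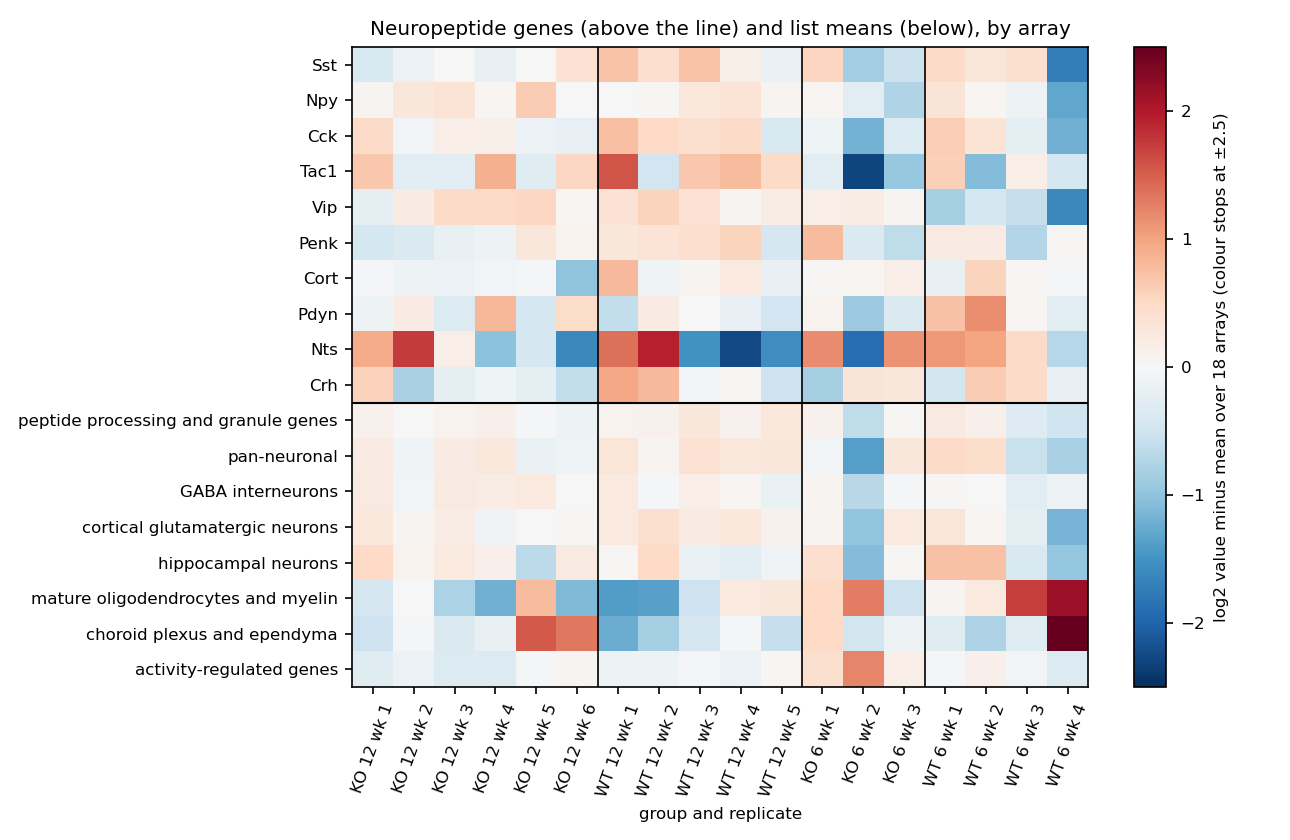
Log2 value minus the mean over the 18 arrays (colour) of each neuropeptide gene and of 8 gene lists, by array. Each gene was centred on its own mean, so colours compare arrays and not genes, and WT replicate 4 and KO replicate 2 of 6 weeks show low values for several neuropeptide genes and for the neuronal lists.

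Of the 7 arrays of 6 weeks, KO replicate 2 held the lowest value for 3 members (Tac1, Pdyn and Nts) and WT replicate 4 for 4 members (Vip, Sst, Npy and Cck). These 2 arrays held the 2 lowest values for Sst, Cck and Nts. In KO replicate 2 the list of activity-regulated genes (15 genes such as Fos and Egr1) averaged 6.77, above 5.96 and 5.72 in the other KO arrays of 6 weeks and 5.21 to 5.68 in WT at 6 weeks. Of its 15 genes, 11 were higher and 4 lower in KO at 6 weeks, with a median of 0.63 (0.30 without KO replicate 2). At 12 weeks 6 were higher and 9 lower in KO (median -0.07), and none passed at either stage. In WT replicate 4 the choroid plexus and ependyma list (9 genes such as Ttr) averaged 9.20, against 5.61 to 6.08 in the other WT arrays of 6 weeks, and the myelin list averaged 10.22. The microglia and macrophage list (9 measured genes such as Itgam and P2ry12) averaged 9.93 in KO replicate 2, against 8.41 and 8.71 in the other KO arrays of 6 weeks and 7.34 to 8.50 in WT at 6 weeks. At 12 weeks it averaged 8.23 to 9.14 in KO against 7.32 to 7.89 in WT. All 9 genes were higher in KO at both stages, with medians of 1.07 at 6 weeks (0.67 without KO replicate 2), where 1 passed (P2ry12), and 1.20 at 12 weeks, where 2 passed (Itgam and P2ry12). The part of these lists in the neuropeptide values was not tested.

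The receptors of these peptides gave no gene that passed in any comparison, with 20 of 23 above the low-signal limit (Sstr5, Tacr3 and Oprk1 were below it). At 6 weeks 5 were higher and 15 lower in KO, with a median of -0.10 that became 0.05 without KO replicate 2, and at 12 weeks 7 were higher and 13 lower, with a median of -0.21. Ntsr2, a neurotensin receptor of astrocytes, was 0.80 ± 0.31 in KO minus WT at 6 weeks (adjusted p = 0.757). Ntsr1, the other neurotensin receptor, averaged 3.48 in KO, near the low-signal limit, against 4.09 in WT at 12 weeks. Its difference was -0.62 ± 0.28 (adjusted p = 0.414). Adcyap1r1, the PACAP receptor, which also binds VIP weakly, averaged 6.83 in KO against 6.16 in WT at 12 weeks, a difference of 0.67 ± 0.21 (adjusted p = 0.201). At 6 weeks it averaged 6.84 in KO against 6.92 in WT, and 12 minus 6 weeks in WT was -0.76 ± 0.23 (adjusted p = 0.318). Sstr4, a somatostatin receptor, was -1.03 ± 0.44 in KO minus WT at 12 weeks (adjusted p = 0.388) and 1.18 ± 0.48 in 12 minus 6 weeks in WT (adjusted p = 0.514). The astrocyte list (9 genes) was higher in KO in 8 of 9 genes at 6 weeks and 9 of 9 at 12 weeks, with none passing. It averaged 8.72 to 9.15 in KO against 8.27 to 8.47 in WT at 12 weeks. The part of this list in the receptor values was not tested.

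The processing enzymes and granule proteins (19 of 19 tested) also gave no gene that passed. At 6 weeks 7 were higher and 12 lower in KO (median -0.06, or 0.24 without KO replicate 2), and at 12 weeks 6 and 13 (median -0.17). Between stages 14 of 19 were higher at 12 weeks in each genotype, with medians of 0.35 in WT (0.12 without WT replicate 4 of 6 weeks) and 0.20 in KO (-0.04 without KO replicate 2 of 6 weeks). Chga, the granule protein chromogranin A, averaged 6.69 in KO against 7.41 in WT at 12 weeks, a difference of -0.72 ± 0.25 (adjusted p = 0.262). Cpe, the carboxypeptidase that trims peptide ends, was 0.35 ± 0.16 in KO minus WT at 6 weeks (adjusted p = 0.854). In WT, 12 minus 6 weeks was 1.22 ± 0.42 for the synaptic vesicle protein Sv2b (adjusted p = 0.406), 0.61 ± 0.23 for Scg5, the chaperone of the convertase PCSK2 (adjusted p = 0.498), and 0.46 ± 0.19 for the amidating enzyme Pam (adjusted p = 0.512).

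Of the enzymes and binding proteins that end peptide action, all 12 were tested and none passed. At 12 weeks 9 were higher and 3 lower in KO (median 0.22), and at 6 weeks 6 and 6 (median 0.02). Ece2, an endothelin-converting enzyme that also cleaves neuropeptides, averaged 5.67 in KO against 4.96 in WT at 12 weeks and 4.93 in KO against 5.38 in WT at 6 weeks. Its difference at 12 weeks was 0.72 ± 0.20 (adjusted p = 0.131) and its interaction 1.17 ± 0.32 (adjusted p = 0.734). Crhbp, which binds and inactivates the peptide of Crh, was 0.60 ± 0.22 in 12 minus 6 weeks in WT (adjusted p = 0.476).

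Among 15 of 19 other neuropeptide precursors that could be tested, none passed in any comparison. At 12 weeks 6 were higher and 9 lower in KO (median -0.12), and at 6 weeks 10 and 5 (median 0.07). Nmb, neuromedin B, was 0.83 ± 0.30 in KO minus WT at 12 weeks (adjusted p = 0.298). Cartpt, the CART precursor, was 0.68 ± 0.26 in 12 minus 6 weeks in WT (adjusted p = 0.505), and Pnoc, the nociceptin precursor, 0.67 ± 0.24 in 12 minus 6 weeks in KO (adjusted p = 0.565).

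The GABA interneuron list (16 genes), which holds the transmitter enzymes of the cells that make most of these peptides, had no gene that passed. At 12 weeks 11 genes were higher and 5 lower in KO (median 0.13), and at 6 weeks 5 and 11 (median -0.21, or 0.07 without KO replicate 2). Between stages 11 were higher and 5 lower at 12 weeks in WT (median 0.08), and 14 and 2 in KO (median 0.34, or 0.11 without KO replicate 2 of 6 weeks). Gad2, a GABA-synthesising enzyme, averaged 7.54 in KO against 7.01 in WT at 12 weeks, and 6.81 in KO against 7.32 in WT at 6 weeks. Its differences were 0.53 ± 0.19 at 12 weeks (adjusted p = 0.295) and -0.51 ± 0.24 at 6 weeks (adjusted p = 0.916), with an interaction of 1.04 ± 0.31 (adjusted p = 0.783). Gad1, its sister enzyme, was 0.81 ± 0.28 in 12 minus 6 weeks in KO (adjusted p = 0.549). In 12 minus 6 weeks in WT, Gad1 was 0.47 and Gad2 -0.31. Lamp5 and Erbb4, markers of interneuron classes, were -0.68 and -0.31 in KO minus WT at 12 weeks. In the hippocampal list, the dentate gyrus transcription factor Prox1 fell by 2.07 ± 0.29 in WT at 12 weeks, which averaged 5.69 against 7.76 at 6 weeks (adjusted p = 0.0121). Of the 9 genes of that list, 5 were higher and 4 lower at 12 weeks in WT, with a median of 0.06. Those with an unadjusted p under 0.05 were Prox1 and Dsp, both lower, and Wfs1 (1.04) and Spink8 (1.96), both higher. Prox1 was the only gene of the neuronal lists (pan-neuronal, GABA, cortical, hippocampal and striatal) that passed in any of the 5 comparisons, and the count of all genes passing between stages in WT ran from 0 to 7 over the settings tried. Its part in the neuropeptide values was not tested.

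As a description with no test, the 3 genes most like each member were taken by Pearson correlation of log2 values over the 18 arrays, which share their groups and the 2 arrays that stand apart. Those of Vip were Ube2v1 (0.86), Hddc2 (0.83) and Ntm (0.82), and those of Sst were Grin2a (0.89), Itpka (0.88) and Lmo3 (0.87). Those of Npy were Galnt16 (0.86), Ica1l (0.86) and Medag (0.80), and those of Cck were Cend1 (0.92), Lin7b (0.91) and Nrgn (0.90). For Tac1 they were Rasd1 (0.88), Spon1 (0.84) and Ankrd9 (0.82), and for Nts they were Tekt5 (0.82), H3c14 (0.79) and Nfyc (0.79).

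Those of Penk were Zfp697 (0.76), Scube1 (0.75) and Mst1r (0.72), and those of Pdyn were Gga3 (0.78), Kcns2 (0.76) and Nt5c1a (0.75). For Crh they were Arap3 (0.77), Olfr1220 (0.75) and Cutc (0.72), and for Cort they were Olfr1339 (0.80), Nkx3-2 (0.79) and Cypt3 (0.78). Without the 2 arrays of lowest weight, over 16 arrays, the correlation of Sst with Grin2a was 0.65 and that of Cck with Cend1 was 0.80, while that of Nts with Tekt5 was 0.84 and that of Tac1 with Rasd1 was 0.84.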

How the data were processed

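RNA of the caudal corpus callosum was amplified, labelled with biotin and hybridised to 1 array per sample, per the labels' protocols. The authors' deposited log2 values were used, for 241576 probe sets in 18 arrays. The background correction, normalization and probe summary behind them are not given in the sources used here, and background levels are not used here, so nothing is said of which genes lie above background. Array medians spanned 0.148, and no further normalization was applied. The number of arrays limits the precision.

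Probe sets were named from the platform annotation: 212097 had 1 symbol and were used, 4475 had several and 25004 had none. RefSeq names (GRCm38.p6) updated 2668 symbols, and 127 of 20416 symbols were not found there. The value of a gene is the median of its probe sets. The 20% of genes with the lowest mean (a mean log2 up to 3.41) were not tested, leaving 16332. One limma model (version 3.58.1, R 4.3.3) with 4 group means was fitted to all 18 arrays, with 14 residual and 5.6 prior degrees of freedom. Tests were two-sided, with Benjamini-Hochberg adjustment over all genes tested and a threshold of 0.05. The fit was tested on simulated data first. Figures were drawn in Python 3.11.15 with matplotlib 3.10.9.

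The 10 members are named whatever their values, with up to 4 genes of smallest p per list and the 3 genes most like each member. Members and lists were chosen with earlier results of these data known. List values in an array are means of log2 values over the measured genes of the list. Alternatives covered the filter, quantile normalization, the value standing for a gene, array weights, the groups in the fit, replicate and run blocks, sex, a pan-neuronal covariate and leaving out each array. The comparison of deposition runs and the fit without the 2 arrays of lowest weight were chosen after seeing the data.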

Additional observations from a re-analysis of the deposited data

Results flagged for a closer look

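In groups of 4 to 10 arrays, the gap between the highest or lowest array and its nearest neighbour was set against the range of the group, and 5 of 78 groups looked at passed Dixon's 95% critical value. Chance gives about 1 in 20. Sst in WT at 6 weeks was 8.17 in replicate 4, against 10.19 to 10.37 in the other 3 arrays. Penk in WT at 12 weeks was 5.67 in replicate 5, against 6.38 to 6.66 in the others. Cort in KO at 12 weeks was 4.57 in replicate 6, against 5.42 to 5.53 in the others.

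Among the marker lists, the hippocampal list averaged 5.58 in replicate 5 of KO at 12 weeks, against 6.31 to 6.72 in the others. The choroid plexus and ependyma list averaged 9.20 in replicate 4 of WT at 6 weeks, the same array as for Sst, against 5.61 to 6.08 in the others.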

How the results depend on the processing

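No neuropeptide gene passed in any genotype or stage comparison or the interaction under any alternative run for it (8 to 12 per result) or in 18 fits without 1 array. Of 1465 alternative values of the members, none crossed the threshold, 8 were counted as reversed and 1457 as unchanged. A change of sign was counted only where the main difference was at least 1 SE. Smaller differences that changed sign are therefore among the 1457. Pdyn turned to -0.031 for genotype at 12 weeks with the mean of its probe sets, and with the brightest probe set to -0.51 there, 0.026 between stages in WT, -0.46 between stages in KO and -0.49 for the interaction, where the member median became -0.49. With the run block, where the 6-week arrays share the first run's term and the stage value sets that run alone against 6 weeks, Nts turned to 0.71 in WT and became 1.13 in KO (-0.18 without the block, under 1 SE). Sst for stage in WT turned to -0.026 without the 2 arrays of lowest weight. The Nts difference between runs lost its call with no filter (-2.61, adjusted p = 0.0639), the brightest probe set (-1.60, adjusted p = 0.451) and all 18 arrays in the fit (-2.61, adjusted p = 0.170), and ran from -2.89 to -2.36 over fits without 1 array. The causes were not tested.

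Counts over all genes moved more. For genotype at 12 weeks the 72 genes became 191 with array weights, 234 with only the groups compared and 218 without the 2 arrays of lowest weight. For genotype at 6 weeks the 7 genes became 0 with only the groups compared. For stage in WT the 3 genes became 5 with the mean of probe sets, 1 with the brightest, 1 with only the groups compared, 7 with sex, 1 with the run block and 6 with the pan-neuronal covariate. For stage in KO the 1 gene became 3 with the mean, 3 with the brightest probe set, 0 with only the groups compared and 0 without the 2 arrays. Leaving out 1 array gave 0 to 11 genes for genotype at 6 weeks, 14 to 129 at 12 weeks, 1 to 6 for stage in WT and 1 to 5 in KO. The member medians then ran from -0.55 to -0.011 for genotype at 6 weeks, 0.08 to 0.51 for stage in KO and -0.25 to 0.38 for the interaction, and Sst for stage in WT from -0.026 to 0.71.

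The labels number the replicates alike in each group. Same-numbered arrays correlated at -0.36 to 0.24 after removing group means. With so few arrays in a group, these correlations cannot settle whether such arrays share more than a number. With the replicate number as a block, 20 genes passed for genotype at 12 weeks, 0 at 6 weeks, 0 between stages in WT and 2 between stages in KO, and no neuropeptide gene passed.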
